A study of Mus musculus with 11 samples.

Results

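The 4 mouse Hox clusters were followed from blood stem cells to early T cells. A Hox gene was any gene of clusters A to D with a probe set carrying its symbol alone. This gave 37 Hox genes among 19938 genes measured, 10 in cluster A and 9 each in clusters B, C and D. Hox genes with no probe set of their own are not analysed here. Each of the 37 genes had a single probe set, so no gene had a second reading.

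Cells were sorted from C57BL/6J mice, with no genotype or treatment in the labels, and hybridised to 11 Affymetrix arrays. Bone marrow gave HSC, the hematopoietic stem cells, LMPP, which are multipotent progenitors already lymphoid-primed, and CLP, the common lymphoid progenitors, with 2 arrays each. From thymus, by the tissue label, came early T lineage progenitors (ETP) and double-negative stage 3 cells (DN3), with 2 arrays each, and double-negative stage 2 cells (DN2), with 1. The free-text field of the ETP, DN2 and DN3 samples names bone marrow instead. No age, sort marker or pooling is given, nor whether replicates came from separate animals, and the spread behind each p-value may therefore be technical.

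Hox genes encode homeodomain transcription factors that lie in clusters and are numbered by paralogue group along each cluster. They bind DNA together with TALE homeodomain cofactors of the Meis, Pbx and Pknox families, and MLL and Polycomb complexes hold their loci active or silent. In blood, Hoxa9 and Meis1 are known for their part in stem and progenitor cells and in acute leukaemia, and Hoxb4 and Hoxb5 for stem cell self-renewal and for marking stem cells.

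Values are log2 intensities, made by the authors with RMA, on which 1 unit is a 2-fold difference. Array medians ran from 6.01 to 6.12. Some population markers followed the labels and others did not separate neighbours. Il2ra read 4.07 to 4.49 in the 6 marrow arrays, 6.96 and 7.68 in ETP, and 11.23 to 11.40 in DN2 and DN3. Ptcra read 7.76 and 8.01 in DN3 and at most 6.57 elsewhere. Of the CLP markers, Ebf1 read 9.22 and 9.32 in CLP and at most 5.43 elsewhere, but the others were also high in DN3. Rag1 read 10.85 and 11.10 in CLP and 11.45 and 11.63 in DN3. Ly6d read 10.63 and 10.68 in CLP and 10.65 and 10.60 in DN3. Il7r read 10.75 and 10.66 in CLP and 9.68 and 9.81 in DN3. Slamf1 read 7.42 and 7.67 in HSC and 4.01 and 4.41 in LMPP, whereas Hlf (8.32 and 8.91, against 8.55 and 9.34) and Mecom (7.02 and 7.09, against 6.90 and 7.15) overlapped between them. The mean of the LMPP markers was 11.24 to 11.36 in LMPP and 11.49 to 11.60 in CLP. Hes1, an early thymic marker, read 8.19 to 8.44 in the thymic arrays and 5.72 to 6.72 in marrow. Notch1 and Gata3, of the same list, also had higher means in each thymic population than in marrow. Kit, of that list too, did not: it read 9.10 to 9.83 in HSC and LMPP, 9.23 and 9.50 in ETP, and 6.84 and 7.20 in DN3. As a description of probe sets for genes that blood cells are not known to use, the 95th percentile of 1015 olfactory receptor genes was 5.83 to 5.94 in the 6 populations. The mean of 14 Hox genes passed that level in at least 1 population and that of 9 in all 6, whereas 23 passed it in none. By cluster the 14 were 6 of cluster A (Hoxa4, Hoxa5, Hoxa6, Hoxa7, Hoxa9, Hoxa10), 5 of cluster B (Hoxb1, Hoxb3, Hoxb4, Hoxb7, Hoxb9), 1 of cluster C (Hoxc9) and 2 of cluster D (Hoxd9, Hoxd10). With the 90th percentile 18 genes passed, and with the 99th 8.

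Across the 6 populations few Hox genes changed, and those that did fell. Hoxa9, Hoxa5 and Hoxb5 passed limma's F test at a Benjamini-Hochberg adjusted p under 0.05, which is 8.11% of the 37 against 12.2% of all genes. Over the F test and 7 pairwise comparisons 4 genes were called at least once, all lower (Hoxb4 was the other), and 33 were called in none. The share of all genes called at least once was not counted. The largest difference between population means had a median of 0.30 for the Hox genes and 0.34 for all genes. By cluster this median was 0.52 in A, 0.22 in B, 0.30 in C and 0.19 in D. It reached 1 log2 unit in 2 of the 37, Hoxa9 and Hoxa5 (5.41%, against 8.20% of all genes). The calls thus lie in single genes.

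**Figure D1:**
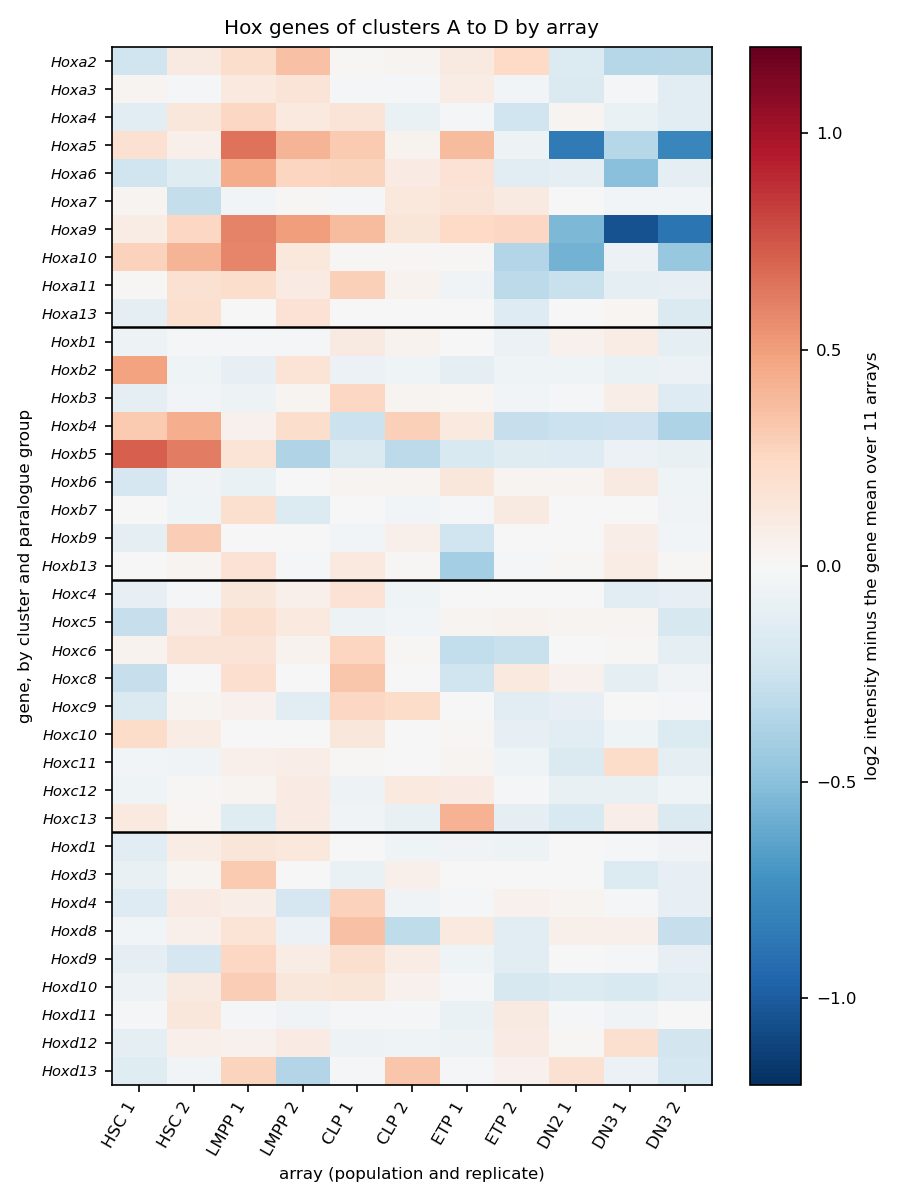
Heat map of the 37 Hox genes (vertical axis, by cluster and paralogue group) on the 11 arrays (horizontal axis), coloured by log2 intensity minus the gene's mean over the arrays. The strongest colours lie in Hoxa5 and Hoxa9, low in DN2 and DN3, and in Hoxb5, high in both HSC arrays, while clusters C and D are pale throughout.

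Hoxa9, the posterior-type factor of cluster A that pairs with Meis1, was the Hox gene with the largest difference. It read 7.06 and 7.22 in HSC, 7.56 and 7.47 in LMPP, 7.35 and 7.11 in CLP, 7.21 and 7.22 in ETP, 6.43 in DN2, and 5.92 and 6.09 in DN3. All 8 arrays up to ETP lay above the DN2 array, which lay above both DN3 arrays. The population means ran in the order LMPP 7.52 ± 0.0591, CLP 7.23 ± 0.168, ETP 7.22 ± 0.0139, HSC 7.14 ± 0.118, DN2 6.43 and DN3 6.01 ± 0.118 (SD, n = 2; DN2 n = 1). The 4 comparisons tested among the first 4 did not pass: limma's adjusted p was 0.197 for LMPP against HSC, 0.579 for CLP against LMPP, 0.332 for ETP against LMPP and 0.991 for ETP against CLP. From ETP to DN3 Hoxa9 fell by 1.21 log2 units (SE 0.127, 2.31-fold, limma adjusted p = 0.000153), and it was the single Hox gene called there (2.70% of the 37, against 6.57% of all genes, 3.89% of all genes being called lower). From HSC to DN3 it fell by 1.14 (SE 0.127, 2.20-fold, limma adjusted p = 0.000167). Both calls stood in all 19 alternative fits. The F test gave Hoxa9 an adjusted p of 0.000122.

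DN2 already showed the lower Hoxa9 level on its 1 array. The difference from ETP was -0.79 (SE 0.155, limma adjusted p = 0.0458), 1 of 37 Hox genes against 0.998% of all genes (0.677% called lower). This call ended without either LMPP, either ETP or either DN3 array, and it was made in 7 of 17 alternative fits, with adjusted p from 0.0301 to 0.194. The difference itself stayed between -0.80 and -0.75. Comparisons that share ETP, HSC or LMPP arrays are not independent of each other.

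Hoxa5, a middle member of cluster A, was also low in DN2 and DN3. Its arrays read 7.04 and 6.92 in HSC, 7.51 and 7.27 in LMPP, 7.17 and 6.90 in CLP, 7.24 and 6.80 in ETP, 6.01 in DN2, and 6.52 and 6.08 in DN3. No DN2 or DN3 array reached any of the 8 earlier ones. The F test called it (adjusted p = 0.00918) in the main fit and in all 18 alternative fits. Pairwise calls were less firm. DN3 against HSC was -0.68 (SE 0.191, limma adjusted p = 0.0492). That call ended without either HSC, LMPP or CLP array or the second DN3 array. It also ended after quantile normalization once more, after median centring, with array weights and with the 2 populations alone. The difference ran from -0.91 to -0.46 over the alternatives. DN3 against ETP was -0.72 (SE 0.191), which missed the threshold at an adjusted p of 0.05 after rounding and passed it in 7 of 19 alternative fits. DN2 against ETP was -1.01 (SE 0.233, limma adjusted p = 0.101).

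**Figure D2:**
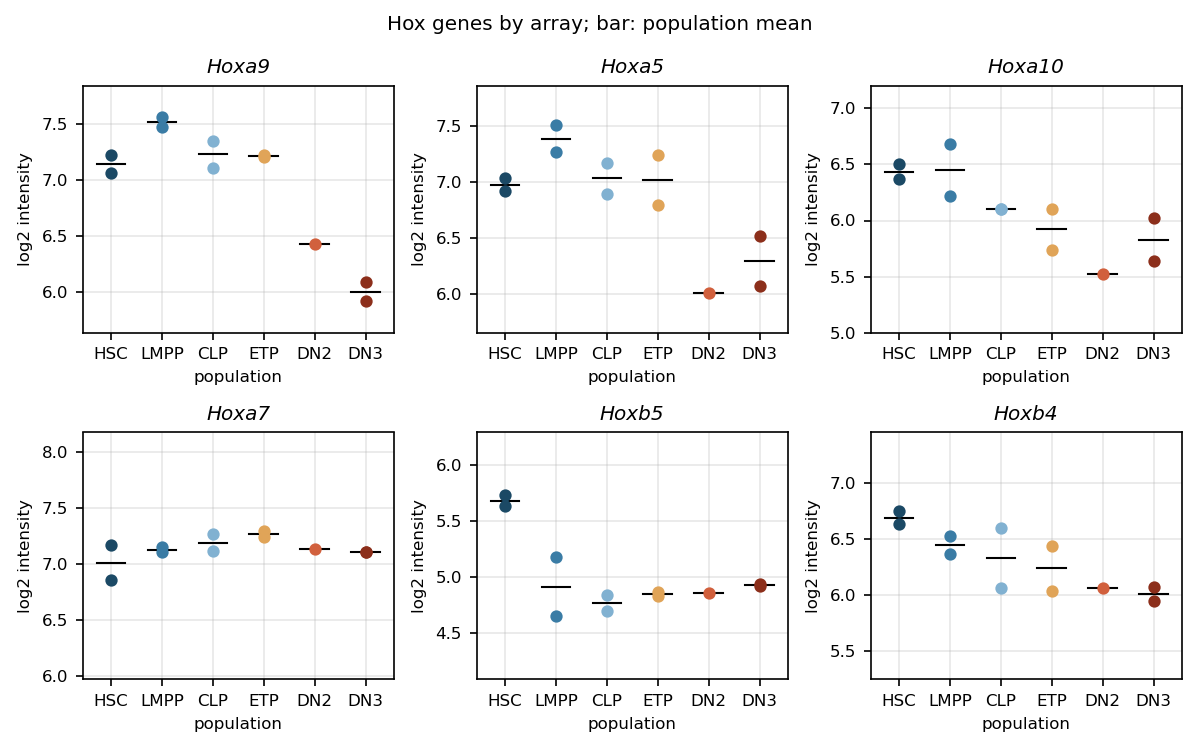
Log2 intensity (vertical axis) of Hoxa9, Hoxa5, Hoxa10, Hoxa7, Hoxb5 and Hoxb4 in the 6 populations (horizontal axis); each point is an array and each bar a population mean, and the axes span different levels. Hoxa9 and Hoxa5 drop at DN2 and DN3, Hoxb5 is high in HSC alone, and Hoxa7 stays between 6.85 and 7.29.

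Other genes of cluster A had smaller differences or none. Hoxa10, the neighbour of Hoxa9, read 6.37 and 6.50 in HSC, 6.68 and 6.22 in LMPP, 6.10 and 6.10 in CLP, 6.10 and 5.74 in ETP, 5.52 in DN2, and 6.02 and 5.64 in DN3. Every HSC array lay above every DN3 array, but the difference of -0.61 (SE 0.187) did not pass (limma adjusted p = 0.0743). Hoxa6 read 6.11 and 6.21 in HSC, 6.80 and 6.61 in LMPP, 6.62 and 6.45 in CLP, 6.52 and 6.22 in ETP, 6.23 in DN2, and 5.85 and 6.24 in DN3, with an F test adjusted p of 0.106. Its LMPP arrays were the highest but for CLP replicate 1, which lay between them.

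Hoxa7 and Hoxa4 lie in the same stretch of the cluster and were not called. Hoxa7 read 7.17 and 6.85 in HSC, 7.10 and 7.15 in LMPP, 7.11 and 7.26 in CLP, 7.29 and 7.24 in ETP, 7.13 in DN2, and 7.10 and 7.10 in DN3. Its means differed by at most 0.25, although it sits between Hoxa6 and Hoxa9. Hoxa4 read 7.72 and 7.99 in HSC, 8.10 and 7.97 in LMPP, 8.01 and 7.77 in CLP, 7.83 and 7.61 in ETP, 7.88 in DN2, and 7.77 and 7.72 in DN3, with means at most 0.32 apart. DN3 arrays of both genes overlapped those of HSC.

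The remaining 4 measured genes of cluster A, Hoxa2, Hoxa3, Hoxa11 and Hoxa13, had means under the olfactory level in every population, with arrays from 4.36 to 5.47. Hoxa2, at the anterior end, was 4.81 and 4.94 in ETP and 4.36 and 4.37 in DN3. The difference of -0.51 (SE 0.134) gave a limma adjusted p of 0.0513, just outside the threshold.

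As a group the cluster A genes leaned up from HSC to LMPP and down afterwards, without a call in either step. All 10 were higher in LMPP than in HSC in the mean, as were 57.4% of all genes (median 0.16, against 0.03), and 9 of 10 were lower in ETP than in LMPP (56.6% of all genes; median -0.31, against -0.03). The groups' arrays did not overlap for 5 of 10 in the first comparison, all higher (21.3% of all genes), and for 7 of 10 in the second that were lower (24.9% of all genes). Olfactory receptor genes leaned the same way, with medians of 0.09 and -0.10 and with 784 and 767 of 1015 on the same side as cluster A; the part of this in the Hox values was not tested. After quantile normalization once more 8 of 10 were higher in LMPP, and after median centring 9 of 10; 9 of 10 stayed lower in ETP under both. In DN3 9 of 10 were lower than in HSC, against 49.5% of all genes (median -0.16, against 0.00), Hoxa7 being the exception, and this count was the same under both scalings.

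In cluster B the calls were Hoxb5 and Hoxb4, both high in HSC. Hoxb5 read 5.73 and 5.63 in HSC, 5.18 and 4.65 in LMPP, 4.84 and 4.70 in CLP, 4.83 and 4.87 in ETP, 4.86 in DN2, and 4.94 and 4.92 in DN3. Both HSC arrays stood above all the others, and the LMPP arrays spanned all arrays of the later populations; both DN3 arrays lay just above those of CLP, ETP and DN2. Its means stayed under the olfactory level everywhere. From HSC to LMPP it fell by 0.76 (SE 0.159, limma adjusted p = 0.0293), the single Hox gene called (2.70%, against 2.94% of all genes, 1.71% called lower). That call ended without either HSC, ETP or DN3 array or the second LMPP array, with array weights and with the 2 populations alone. The Hoxb5 difference ran from -1.03 to -0.5 over the alternatives. From HSC to DN3 it fell by 0.75 (SE 0.159, limma adjusted p = 0.0123), which ended without the first HSC or either DN3 array (adjusted p up to 0.0919). The F test, at an adjusted p of 0.02, was likewise lost without either HSC or either DN3 array (up to 0.146).

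Hoxb4 read 6.63 and 6.75 in HSC, 6.37 and 6.53 in LMPP, 6.06 and 6.60 in CLP, 6.44 and 6.04 in ETP, 6.06 in DN2, and 6.07 and 5.95 in DN3. Its mean was lower at each step of that order, from 6.69 ± 0.0850 in HSC to 6.01 ± 0.0859 in DN3 (SD, n = 2), but the CLP and ETP replicates each spanned much of the range, and none of the tested steps between neighbouring populations passed. DN3 was 0.68 log2 units below HSC (SE 0.186, 1.60-fold, limma adjusted p = 0.0452). The call ended without either HSC, LMPP or DN3 array. It also ended after quantile normalization once more, after median centring and with the replicate block. The difference stayed between -0.74 and -0.61 over the alternatives.

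With Hoxa5, Hoxa9 and Hoxb5, this made 4 Hox genes lower in DN3 than in HSC and 0 higher (10.8% of the 37 called, against 9.60% of all genes, 5.43% of all genes being called lower). The unadjusted limma p was under 0.05 for 6 of the 37 Hox genes and for 19.6% of all genes. In the means 25 of 37 were lower in DN3 (median -0.08, all genes 0.00), and 23 under each other scaling. Arrays did not overlap for 13 that were lower (35.1%, against 22.4% of all genes) and for 1 that was higher, Hoxd9 (2.70%, against 23.1%). Leaving out HSC replicate 1 or DN3 replicate 2 left 1 call, Hoxa9, and leaving out either LMPP array or DN3 replicate 1 left 2.

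**Figure D3:**
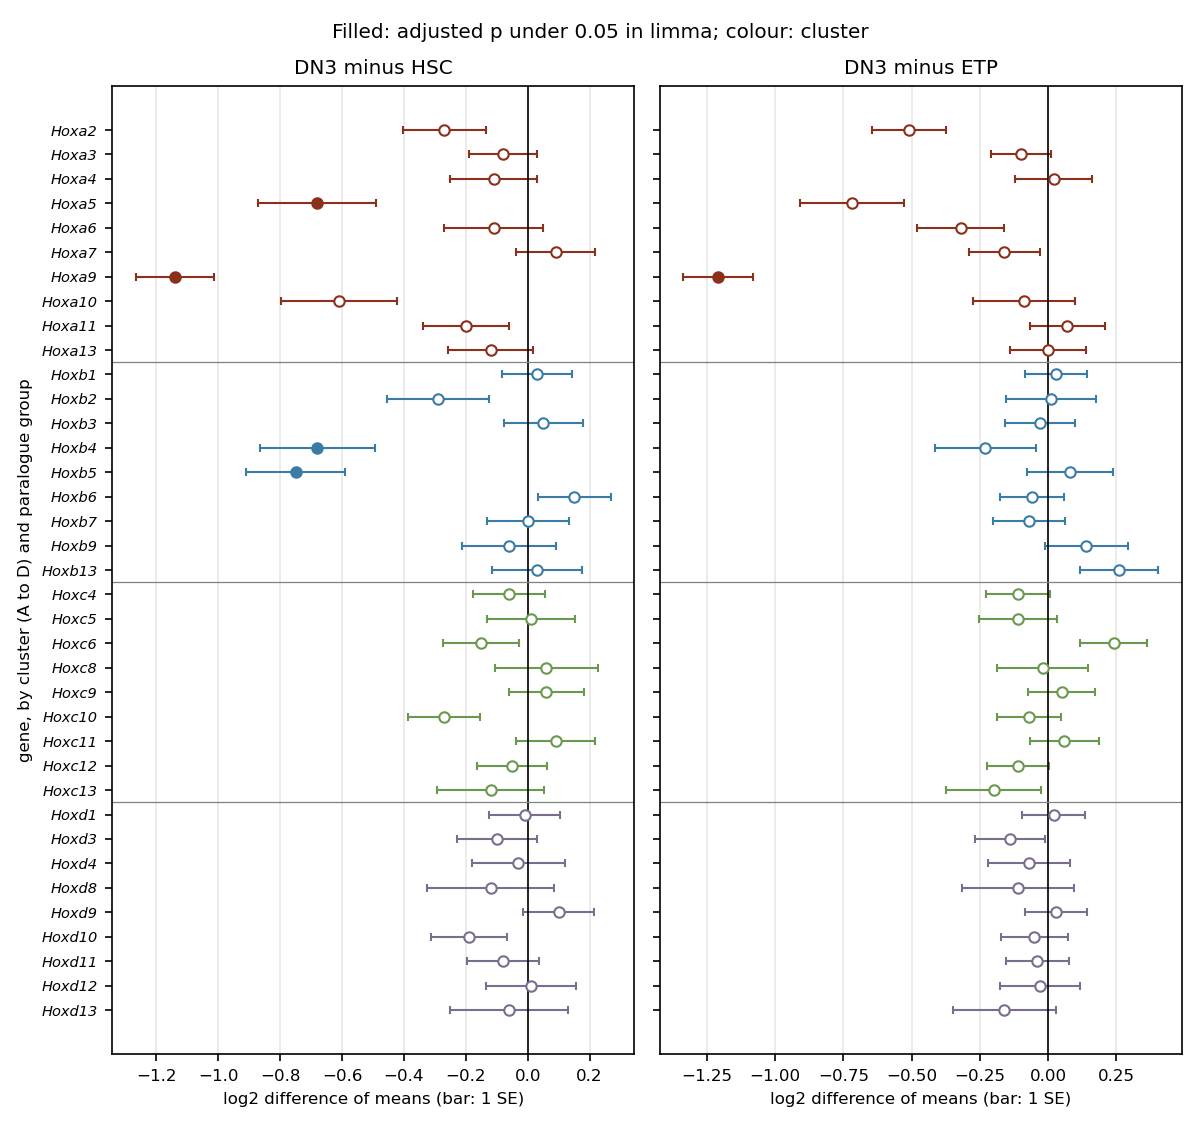
Log2 differences of means (horizontal axis; bars show 1 SE) for the 37 Hox genes (vertical axis) between DN3 and HSC (left) and DN3 and ETP (right); filled points passed limma at an adjusted p under 0.05, and colour marks the cluster. Hoxa9 stands farthest left in both panels, Hoxb4 and Hoxb5 are low against HSC alone, and clusters C and D lie within 0.30 of 0.

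The other cluster B genes above the olfactory level varied little. Hoxb1 read 6.74 and 6.78 in HSC, 6.79 and 6.79 in LMPP, 6.91 and 6.84 in CLP, 6.80 and 6.73 in ETP, 6.85 in DN2, and 6.89 and 6.69 in DN3. Hoxb3, beside Hoxb4, read 6.52 and 6.60 in HSC, 6.58 and 6.67 in LMPP, 6.89 and 6.67 in CLP, 6.66 and 6.60 in ETP, 6.62 in DN2, and 6.72 and 6.48 in DN3. Their DN3 arrays fell on both sides of the HSC arrays.
Hoxb7 read 5.95 and 5.90 in HSC, 6.14 and 5.79 in LMPP, 5.95 and 5.92 in CLP, 5.94 and 6.06 in ETP, 5.96 in DN2, and 5.95 and 5.91 in DN3; a probe set it shares with Hoxb8 was not used. Hoxb9, the paralogue of Hoxa9 in this cluster, read 5.66 and 6.08 in HSC, 5.78 and 5.78 in LMPP, 5.75 and 5.84 in CLP, 5.54 and 5.78 in ETP, 5.78 in DN2, and 5.86 and 5.75 in DN3. Replicates of Hoxb9 in HSC differed by more than its population means did. Hoxb2, Hoxb6 and Hoxb13 stayed under the olfactory level in the mean; Hoxb2 read 5.88 in HSC replicate 1 and 5.28 to 5.56 on the other 10 arrays.

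Clusters C and D, known for limb, trunk and genital patterning, gave no call. None of the 18 genes was called in any of the 8 limma tests, of which the F test alone called 12.2% of all genes. Their smallest F test adjusted p was 0.22, and their arrays ran from 4.23 to 6.11. Hoxc9 read 5.66 and 5.87 in HSC, 5.89 and 5.71 in LMPP, 6.09 and 6.06 in CLP, 5.83 and 5.71 in ETP, 5.74 in DN2, and 5.83 and 5.82 in DN3. Its CLP arrays were the highest of the 11. Hoxd9 read 5.69 and 5.61 in HSC, 6.06 and 5.90 in LMPP, 6.00 and 5.90 in CLP, 5.76 and 5.68 in ETP, 5.81 in DN2, and 5.79 and 5.71 in DN3. Hoxd10 read 5.75 and 5.92 in HSC, 6.11 and 5.95 in LMPP, 5.96 and 5.86 in CLP, 5.79 and 5.62 in ETP, 5.65 in DN2, and 5.63 and 5.67 in DN3. Both had LMPP means above those of the other populations, by less than their tests could call (F test adjusted p 0.30 and 0.265). Of the paralogue group of Hoxa9, then, Hoxb9, Hoxc9 and Hoxd9 were not called; the difference between them and Hoxa9 was not tested.

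In the comparisons among LMPP, CLP and ETP limma called 0 Hox genes. For CLP against LMPP the unadjusted limma p was under 0.05 for 2 of 37, against 8.5% of all genes. The smallest adjusted p was 0.575 (1.14% of all genes called). For ETP against LMPP the unadjusted count was 7, against 13.4% of all genes, and the smallest adjusted p 0.17 (2.31% of all genes called). For ETP against CLP these were 3, against 11.4%, and 0.147 (2.52% called). 

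The correlation between array values had its highest median within cluster A. Over the 11 arrays, which share their 6 populations, the median Pearson r was 0.52 for the 45 pairs within cluster A, -0.07 within B, 0.19 within C, 0.21 within D, 0.15 for 38 pairs of the same paralogue group in different clusters and 0.20 for all 666 pairs. Hoxa9 had an r of 0.86 with Hoxa5 and with Hoxa2, 0.75 with Hoxa6, 0.62 with Hoxa10 and 0.09 with Hoxa7. Outside cluster A its r was 0.74 with Hoxd10 and 0.71 with Hoxc4. These are descriptions, as few populations carry them.

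The sequences before the starts of Hoxa9, Hoxa5 and Hoxb4 are shown because these 3 called genes differ in CG content; Hoxb5 is not shown. RefSeq windows (GRCm38.p6) were matched for 21 of the 37 genes, 23 windows in all. The 250 bases upstream run 5′ to 3′ on the gene's strand, with capitals marking each CG dinucleotide. Hoxa9 is chr6:52227371-52227620 (minus strand), Hoxa5 chr6:52204588-52204837 (minus strand) and Hoxb4 chr11:96318017-96318266 (plus strand).
Hoxa9: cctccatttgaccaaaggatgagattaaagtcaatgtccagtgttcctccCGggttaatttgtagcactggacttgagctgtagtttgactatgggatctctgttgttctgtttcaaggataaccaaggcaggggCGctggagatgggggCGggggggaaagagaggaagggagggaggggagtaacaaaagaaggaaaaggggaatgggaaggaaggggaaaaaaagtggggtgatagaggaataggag
Hoxa5: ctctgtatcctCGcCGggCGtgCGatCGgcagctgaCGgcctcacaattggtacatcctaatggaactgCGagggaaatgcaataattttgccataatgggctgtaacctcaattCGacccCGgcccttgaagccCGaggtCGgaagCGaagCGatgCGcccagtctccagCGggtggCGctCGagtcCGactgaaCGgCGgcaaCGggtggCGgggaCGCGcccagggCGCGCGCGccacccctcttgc
Hoxb4: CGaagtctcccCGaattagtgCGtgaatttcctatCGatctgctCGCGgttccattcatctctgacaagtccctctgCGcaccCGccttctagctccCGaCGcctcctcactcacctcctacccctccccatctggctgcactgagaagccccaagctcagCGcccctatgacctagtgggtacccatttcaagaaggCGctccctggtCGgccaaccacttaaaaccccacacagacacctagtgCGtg
These hold 3, 28 and 14 CG dinucleotides. The median was 13 over the 23 Hox windows (range 2 to 35) and 6 over all windows; 18 of 23 Hox windows lay above that median, against 46.3% of all. Hoxa9 and Hoxa5, low together in DN2 and DN3, thus stood on opposite sides of it.

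Letters known from cofactor binding were searched on both strands of those 250 bases. TGATTNAT, a Pbx with Hox site, was in 2.82% of 32851 windows and in those of Hoxa2 and Hoxd11. TGACAG, a Meis site, was in 15.9% and in those of Hoxa2 and Hoxa3. TATAAA was in 12.4% and in 3 Hox windows, of Hoxa10, Hoxd4 and Hoxd13. The 3 sequences printed held none of these letters, which says nothing of binding elsewhere.

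Among the 8 TALE cofactors analysed, Meis1 and Pbx3 were called in the F test and the other 6 were not. Meis1, the partner of Hoxa9, read 10.39 and 9.79 in HSC, 9.12 and 9.41 in LMPP, 8.28 and 8.36 in CLP, 7.78 and 7.94 in ETP, 5.75 in DN2, and 4.82 and 4.81 in DN3. No population's arrays overlapped the next one's. Its log2 difference was -1.41 from LMPP to ETP (SE 0.183, limma adjusted p = 0.00241), -2.11 from ETP to DN2 (SE 0.224, 0.00131), -3.04 from ETP to DN3 (SE 0.183, 2.33e-06) and -5.27 from HSC to DN3 (SE 0.183, limma adjusted p = 5.39e-08). These 4 calls held in all alternatives run. Its DN2 and DN3 arrays lay under the olfactory level, so no fold is given against them.
Its differences of -0.82 from HSC to LMPP (limma adjusted p = 0.0395) and -0.95 from LMPP to CLP (limma adjusted p = 0.0375) were called in 6 and 8 of 19 alternative fits. The first was lost without HSC replicate 1 or either LMPP, CLP, ETP or DN3 array, and the second without either LMPP, CLP, ETP or DN3 array. Meis1 was thus already lower in ETP than in LMPP, where Hoxa9 was not called (-0.30, SE 0.127); whether the 2 genes differ in timing was not tested.

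Pbx3 read 5.76 and 5.78 in HSC, 5.18 and 5.06 in LMPP, 5.19 and 5.04 in CLP, 5.07 and 4.73 in ETP, 4.80 in DN2, and 4.80 and 4.77 in DN3. As for Hoxb5, both HSC arrays stood above all later ones. Its means were under the olfactory level in every population. The difference from HSC to DN3 was -0.98 (SE 0.133, limma adjusted p = 0.000663), called in all 19 alternative fits but short of 1 log2 unit. HSC to LMPP was -0.65 (SE 0.133, limma adjusted p = 0.0269). That call was lost without either HSC, LMPP or DN3 array, with array weights and with the 2 populations alone. Meis2, Meis3, Pbx2, Pbx4, Pknox1 and Pknox2 had means at most 0.54 apart.

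**Figure D4:**
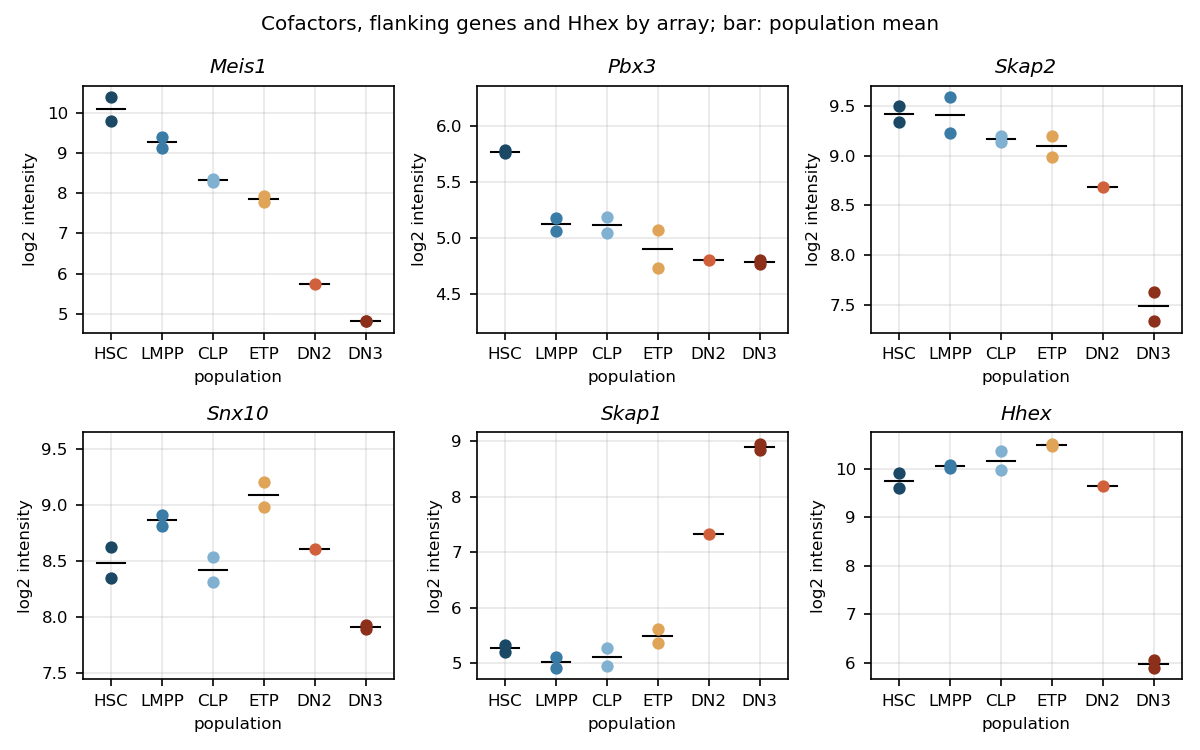
Log2 intensity (vertical axis, spanning different levels) of Meis1, Pbx3, Skap2, Snx10, Skap1 and Hhex in the 6 populations (horizontal axis); points are arrays and bars population means. Meis1 declines over the whole order, Hhex and Skap2 are lowest in DN3, and Skap1 is highest in DN3.

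Genes that set or read the chromatin state of Hox loci gave few calls. Of 34 measured, 3 passed the F test (8.82%, near the 12.2% of all genes): Mllt3, a reader in MLL fusion complexes, Aff1, a scaffold of the super elongation complex, and Ezh1, a Polycomb methyltransferase. Mllt3 read 9.73 and 9.53 in HSC, 8.07 and 8.43 in ETP, and 9.82 and 9.85 in DN3, so it was high at both ends of the order. It rose from ETP to DN3 by 1.59 (SE 0.175, limma adjusted p = 0.000214), where Hoxa9 fell.
From HSC to DN3 0 of 34 were called lower and 3 higher (8.82%, against 4.17% of all genes called higher): Aff1 by 0.78, the H3K27 demethylase Kdm6b by 0.46 and the Polycomb subunit Suz12 by 0.46, with limma adjusted p of 0.0257, 0.025 and 0.0336. Each of the 3 was lost without either DN3 array and without HSC replicate 2, Kdm6b also without HSC replicate 1 and Suz12 also without either ETP array. Aff1 and Suz12 were also lost after quantile normalization once more. So was Suz12 with the replicate block, and Kdm6b and Suz12 with the 2 populations alone. In the means 25 of 34 were higher in DN3 (73.5%, against 50.5% of all genes; median 0.21, against 0.00), and 26 and 28 after quantile normalization once more and median centring. Arrays did not overlap for 18 that were higher (52.9%, against 23.1% of all genes). Kmt2a, the MLL1 methyltransferase, ran from 8.65 to 9.33 with an F test adjusted p of 0.711.

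Genes beside the clusters gave 4 calls in the F test among 21 measured (19.0%, against 12.2%), all beside clusters A or B. Skap2, an adaptor protein gene next to the anterior end of cluster A, read 9.50 and 9.34 in HSC, 9.23 and 9.59 in LMPP, 9.14 and 9.20 in CLP, 8.99 and 9.20 in ETP, 8.68 in DN2, and 7.33 and 7.63 in DN3. Its difference from ETP to DN3 was -1.62 (SE 0.156, limma adjusted p = 8.38e-05). Snx10, a sorting nexin beyond Skap2, fell in that step by 1.18 (SE 0.137, limma adjusted p = 0.000311).
On the other side of cluster A, beyond Evx1, Hibadh, an enzyme of valine breakdown, rose from HSC to DN3 by 1.01 (SE 0.165, limma adjusted p = 0.00235). Skap1, the T cell adaptor gene beside the Hoxb1 end of cluster B, rose from 5.21 and 5.33 in HSC to 8.95 and 8.84 in DN3, by 3.63 (SE 0.146, limma adjusted p = 1.07e-07), the HSC level lying under that of the olfactory genes. The called genes flanking cluster A thus moved in both directions. Skap2 and Snx10 were lower on the anterior side, and Hibadh alone was higher on the Hoxa13 side. The 4 pairwise calls given here held in all alternatives. In the other comparison of DN3, Hibadh from ETP (0.76) and Snx10 from HSC (-0.58) were called in 15 of 19 alternative fits each. Tax1bp1, Hottip, Calcoco2, Ttll6, Evx1, Evx2 and the measured flanking genes of clusters C and D (Smug1, Cbx5, Calcoco1, Mtx2, Lnpk) were not called.

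The clusters also hold microRNAs, printed because they form pairs across clusters with the same seed. Mature sequences are from RefSeq (GRCm38.p6), 5′ to 3′, with the seed, bases 2 to 8, in capitals.
mmu-miR-10a-5p: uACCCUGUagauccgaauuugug
mmu-miR-10b-5p: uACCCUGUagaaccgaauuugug
mmu-miR-196a-5p: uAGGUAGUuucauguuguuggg
mmu-miR-196b-5p: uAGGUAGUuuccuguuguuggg
Counted from the 5′ end, miR-10a and miR-10b differ by U12A and miR-196a and miR-196b by A12C. The mature sequences lie at chr11:96317186-96317208 for miR-10a, chr2:74726074-74726096 for miR-10b, chr11:96265187-96265208 and chr15:102973365-102973386 for the 2 copies of miR-196a, and chr6:52230129-52230150 for miR-196b. The arrays were made from total RNA and cannot tell precursor from mature forms. Mir196b, between Hoxa9 and Hoxa10 in cluster A, read 5.83 and 6.14 in HSC, 6.56 and 6.33 in LMPP, 6.26 and 5.74 in CLP, 5.98 and 5.95 in ETP, 5.94 in DN2, and 5.73 and 5.62 in DN3. Its LMPP arrays were the highest and its DN3 arrays the lowest, but the F test did not call it (adjusted p = 0.146). Mir10a and Mir10b read 2.89 to 3.22, and no microRNA of the list was called.

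Homeobox genes outside the clusters included the largest homeobox change from ETP to DN3 among the lists. Of 26 measured, 4 passed the F test (15.4%, against 12.2%): Hhex, Satb1, Zeb2 and Hopx. Hhex, a regulator of early lymphoid cells, read 10.47 and 10.51 in ETP, 9.65 in DN2, and 6.06 and 5.90 in DN3, a fall of 4.51 (SE 0.155, 22.8-fold, limma adjusted p = 7.89e-08). Unlike Hoxa9 and Meis1 its DN2 array lay close to HSC (9.90 and 9.59). Satb1, a chromatin organiser of lymphoid cells, rose from HSC to LMPP by 2.20 (SE 0.183, limma adjusted p = 0.000115). Zeb2 fell from HSC to DN3 by 1.61 (SE 0.143, limma adjusted p = 3.06e-05). All 3 calls held in all alternatives.

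The genes most like Hoxa9 over the 11 arrays, ranked by Pearson r among the 1633 other genes whose population means differed by at least 1 log2 unit, were Samsn1 (r 0.993), Arrdc3 (0.968), Zfp52 (0.967), Adgrl4 (0.959), Mef2c (0.955), Rgs2 (0.952), Tlr4 (0.952) and Plek (0.948). Samsn1, a lymphocyte adaptor gene, read 8.88 and 9.19 in HSC, 9.65 and 9.43 in LMPP, 9.33 and 9.10 in CLP, 9.10 and 9.25 in ETP, 8.28 in DN2, and 7.53 and 7.53 in DN3. Like Hoxa9, these genes were lowest in DN3 and next lowest in DN2. They were picked for their likeness to Hoxa9 on these same arrays, so this shared order follows largely from the choice.

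Markers of other lineages differed between the populations. The mean of 9 myeloid markers was 8.39 to 8.80 in the HSC arrays, 6.98 to 7.09 in LMPP, 6.38 to 6.51 in CLP, 7.99 to 8.29 in ETP, 6.55 in DN2 and 5.87 to 5.89 in DN3, and all 9 passed the olfactory level in some population. Elane, Mpo, Ctsg, Prtn3, Lyz2 and Ms4a3 had higher means in HSC than in ETP. S100a8, S100a9 and Csf1r went the other way, with means of 8.28, 8.38 and 6.44 in ETP against 6.62, 6.82 and 5.67 in HSC. The mean of the 4 measured of 6 erythroid and megakaryocyte markers was 8.73 to 8.80 in HSC and 5.22 to 6.00 elsewhere. As for Hoxb5 and Pbx3, both HSC arrays stood above all others for Pf4, Car1 and Itga2b. Pf4 read 10.95 and 10.98 in HSC and at most 5.82 elsewhere, and Car1 11.17 and 10.63 against at most 7.28. Itga2b differed less, at 6.79 and 6.70 in HSC and at most 6.28 elsewhere. Klf1 overlapped, at 6.00 and 6.88 in HSC and 6.08 and 5.39 in LMPP. The mean of 10 stromal, epithelial and endothelial markers was 6.26 to 6.47 on all arrays, although single members differed: Epcam read 7.20 and 7.23 in DN3 and at most 5.36 elsewhere, and Pdgfrb read 7.82 and 7.42 in ETP, 7.11 in DN2 and 6.21 to 6.54 elsewhere. Mature B markers (2 of 3 measured) were under the olfactory level in every population, with array means of 3.95 to 5.31. The mean of 3 NK markers rose from 4.38 to 4.51 in HSC to 6.17 to 6.24 in DN3, where Gzma read 11.16 and 11.21 and Ncr1 3.92 and 4.22. Of mature T markers, 3 of 4 measured, the mean was 5.31 to 5.87 in all arrays. Cd8b1 among them read 6.50 and 6.26 in DN3 and at most 5.55 elsewhere. Cd4 and Cd8a in DN3 stayed within the range of the other arrays. The part of all these markers in the Hox differences was not tested. In bulk samples fewer cells of a type and less RNA per cell cannot be told apart.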

How the data were processed

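Total RNA from sorted cells was biotin-labelled with an Affymetrix whole-transcript kit, per the labels' protocols. The deposited values are log2 intensities; the authors used RMA, per the submitters' processing notes. Not given in the sources used here are its version, the genome build and the chip definition. Of 35556 probe sets, 21789 had 1 gene symbol, 1621 several and 12146 none in the platform annotation given; the single-symbol probe set with the highest mean stood for a gene, and none was filtered, which left 19938 genes. Here, limma 3.58.1 (R 4.3.3) fitted 6 group means on 11 arrays with 5 residual degrees of freedom, so DN2 was assumed to vary like the others. The F test and 7 comparisons, two-sided, were adjusted by Benjamini-Hochberg over all genes and called at adjusted p under 0.05. Folds come from differences of means. The fit was tested on simulated data. The number of arrays limits the precision.

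Genes named are all Hox genes, those with an F test call or a mean above the olfactory level array by array, members of the lists, and the 8 genes most like Hoxa9. The Hox genes, lists and tests were chosen with earlier results of these data known. The lists are TALE cofactors, regulators of Hox loci, genes inside or beside the clusters, other homeobox genes, and markers of 11 kinds of cell. Neighbours come from the RefSeq gene table (GRCm38.p6). Alternatives were a stricter threshold (0.01), a minimum of 1 log2 unit (2-fold), a minimum mean of 5 (15326 genes), quantile normalization once more, median centring, averaging of probe sets, array weights, a robust prior with an intensity trend, a replicate block, the 2 populations alone, and each array left out. Other software was Python 3.11.15, pandas 2.3.3 and, for the figures, matplotlib 3.10.9.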

Additional observations from a re-analysis of the deposited data

How the results depend on the processing

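No Hox difference named with a call changed sign under any alternative run. Counts of called Hox genes, from limma with Benjamini-Hochberg adjustment, moved as follows. LMPP against HSC gave 1, and 0 at an adjusted p under 0.01, with at least 1 log2 unit required, with array weights and with the 2 populations alone; it was 0 to 1 with each array left out. DN2 against ETP gave 1, and 0 at an adjusted p under 0.01, with at least 1 log2 unit, after quantile normalization once more, after median centring and with the intensity trend; it was 0 to 1 with each array left out. DN3 against ETP gave 1, but 2 with the filter on dim genes and with the 2 populations alone, and 3 with the mean of probe sets, the intensity trend, array weights and the replicate block; it was 1 to 2 with each array left out. DN3 against HSC gave 4, but 1 at an adjusted p under 0.01 and with at least 1 log2 unit, and 2 after quantile normalization once more and after median centring; it was 1 to 4 with each array left out. The F test gave 3, and 2 to 4 with each array left out. CLP against LMPP, ETP against LMPP and ETP against CLP gave 0 to 0 with each array left out.

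What the replicate numbers stand for is not given. Deviations of same-numbered arrays correlated between -0.258 and 0.283 over 10 pairs of populations, 4 of them over 0.1. Every pair with HSC was negative (-0.258 to -0.088) and every other pair positive (0.07 to 0.283). Whether same-numbered arrays share a factor was not tested. With the replicate block, DN2 against ETP kept a count of 1, with Hoxa5 in place of Hoxa9, and DN3 against ETP gave 3 (Hoxa2, Hoxa5 and Hoxa9). The cause of these moves was not tested. The means of 23 of the 37 Hox genes lay under the olfactory level in every population.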
